A study of Homo sapiens with 6 samples.

Results

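The genes of motile cilia and axonemal dyneins were measured in tumors grown from CRL-5889, a human cell line of lung squamous carcinoma. The implanted cells carried either the TRA2B-DNAH5 fusion (3 tumors, TD, called fusion tumors here) or the vector (3 tumors, ctrl, called vector tumors), and all tumors grew in nude mice and were taken at 4 weeks. The labels call the cells of both groups transfected. They do not say whether the transfected cells were a clone or a pool, which parts of TRA2B and DNAH5 the construct holds, or what promoter drives it. Total RNA of each tumor was hybridised to 1 Affymetrix array, and 3 arrays per group limit the precision of every value. Members were genes whose symbols begin with DNAH, DNAI, DNAAF, CFAP, RSPH, TEKT, DRC or ODAD followed by a digit, with DAW1, DNALI1, DNAL1, DNAL4, FOXJ1, RFX2 and RFX3 added. The rule took 110 of the 18132 genes that had a probe set of their own on the array. Of the 110, 73 had a mean log2 level at or above 4.94, the 30th percentile of all probe sets, and were tested. The other 37 had means of 3.51 to 4.84 and were not tested.

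A motile cilium beats because dynein motors walk along its microtubule doublets. Outer dynein arms set much of the beat power and inner arms shape the bend. Docking proteins hold the outer arms on the doublet, the nexin-dynein regulatory complex and the radial spokes pass signals to the arms, and tektins run inside the doublet wall. Dynein arms are put together in the cytoplasm by assembly factors and then carried into the cilium. In the airway many of these genes, though not all, belong to multiciliated cells, where FOXJ1 and RFX factors drive their transcription. RFX factors bind a palindromic promoter element, the X-box. Loss of DNAH5 in humans leads to primary ciliary dyskinesia.

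The upstream sequences of members, which the selection rule did not use, were searched for motifs of RFX and forkhead factors. RefSeq (GRCh38.p14) gave the 250 bases upstream of an annotated start, the first listed for each gene, for 89 of the 110 members. DAW1 was not among the 89, so its upstream sequence was not searched. The full RFX X-box, both arms searched on both strands, was found in 12 of these 89 (13.5%) and in 352 of 27305 upstream regions of the same length (1.29%), or 233 of 15843 for protein-coding genes (1.47%). The search used a fixed pattern with a fixed spacing between the arms. An X-box with other letters or spacing was not counted, so a region without a match may still hold an X-box. A single arm of the element, GTTNCC, which lies inside every longer match on one strand, was found in 62 of the 89 (69.7%) and in 39.5% of all regions. The forkhead motif GTAAACA was found in 3 of the 89 (3.37%) and in 2.98% of all regions. Among tested members the longer match was present in 7 of 57. Their X-boxes are shown in capitals with up to 13 bases on each side, so that the element that members share can be seen. The stretch ends at the start used where that is closer. For DNAH1 and CFAP96 that start, and so the stretch, lies inside the annotated span of the gene.
DNAH1 (chr3:52316201-52316240, + strand): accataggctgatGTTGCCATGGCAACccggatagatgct
DNAH2 (chr17:7717713-7717743, + strand): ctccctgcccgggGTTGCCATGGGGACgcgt
DNAH11 (chr7:21542998-21543037, + strand): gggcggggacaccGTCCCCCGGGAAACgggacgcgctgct
DNALI1 (chr1:37556910-37556939, + strand): gagtgagggggcgGTTTCCATGGTGACggc
CFAP96 (chr4:185426190-185426229, + strand): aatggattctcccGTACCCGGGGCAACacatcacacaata
CFAP100 (chr3:126394874-126394908, + strand): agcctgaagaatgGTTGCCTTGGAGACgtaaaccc
CFAP263 (chr16:58249896-58249935, + strand): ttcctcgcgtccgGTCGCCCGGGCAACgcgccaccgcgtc
A letter match is a description of these windows and does not show binding. Between fusion and vector tumors these 7 genes had log2 fold changes of -0.17 to 0.25 (4 above 0, 3 below), and limma called 0 of them (lowest adjusted p = 0.896, with 0 at an unadjusted p below 0.05).

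As a whole the arrays were close to each other, with median log2 levels of 6.27 to 6.39 and Pearson's r between arrays of 0.989 to 0.997 across probe sets. Vector tumor 1 stood apart on the first principal component (score 55.8, against -14.8 to -2.73 in the other 5), which held 42.4% of the variance, so results are also given without it. Squamous markers (9 of 12 measured) had a mean of 5.67 to 5.76 in fusion tumors and 5.68 to 5.87 in vector tumors, and 0 of 6 tested passed (1 at an unadjusted p below 0.05). Among them the transcription factor SOX2 had log2 levels of 8.70, 8.92 and 8.85 in fusion tumors and 9.24, 9.62 and 10.1 in vector tumors, with no overlap. The other 8 markers overlapped, and the list had no common direction: 2 of the 6 tested were above 0, CALML3 at 0.21 the highest, and the 3 below the tested range differed by 0.0039 to 0.29. The desmosomal cadherin DSG3 and the serpin SERPINB13 were below the level of 4.94 in all 6 tumors, so these markers of the labelled cell type were not seen above it. Of 17 markers of multiciliated airway cells measured, 8 were below the tested range. Among them SNTN, a protein of the ciliary tip, was at 3.40 to 3.50 in fusion tumors and 3.31 to 3.49 in vector tumors. The mean over the 17 was 5.12 in all fusion tumors and 5.12 to 5.15 in vector tumors, and 0 of the 9 tested passed limma's threshold (1 at an unadjusted p below 0.05).

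DAW1 was the 1 member that passed the threshold between fusion and vector tumors, and it rose. DAW1 is the human form of a Chlamydomonas adaptor that hands outer arm dyneins to the intraflagellar transport machinery. In fusion tumors 1 to 3 it stood at 6.33, 6.40 and 6.21 on the log2 scale, against 5.07, 5.34 and 4.90 in vector tumors 1 to 3. All fusion tumors were higher than all vector tumors, and the spread inside each group was small beside the gap between them. The means were 6.31 ± 0.096 in fusion tumors and 5.10 ± 0.22 in vector tumors (SD, n = 3 each), which is a 2.31-fold difference. The log2 fold change was 1.21 (SE 0.13, 95% confidence interval 0.92 to 1.499), and limma's adjusted p (Benjamini-Hochberg) was 0.0241. An exact two-sided permutation test gave p = 0.1, the smallest value that 3 against 3 tumors allow. A second probe set of DAW1 read 6.14, 6.03 and 6.25 in fusion tumors, against 4.95, 4.86 and 4.54 in vector tumors. It too had no overlap between groups, with a log2 difference of 1.35. The vector means lie close to the level of 4.94, where a dim signal can understate a fold.

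**Figure D1:**
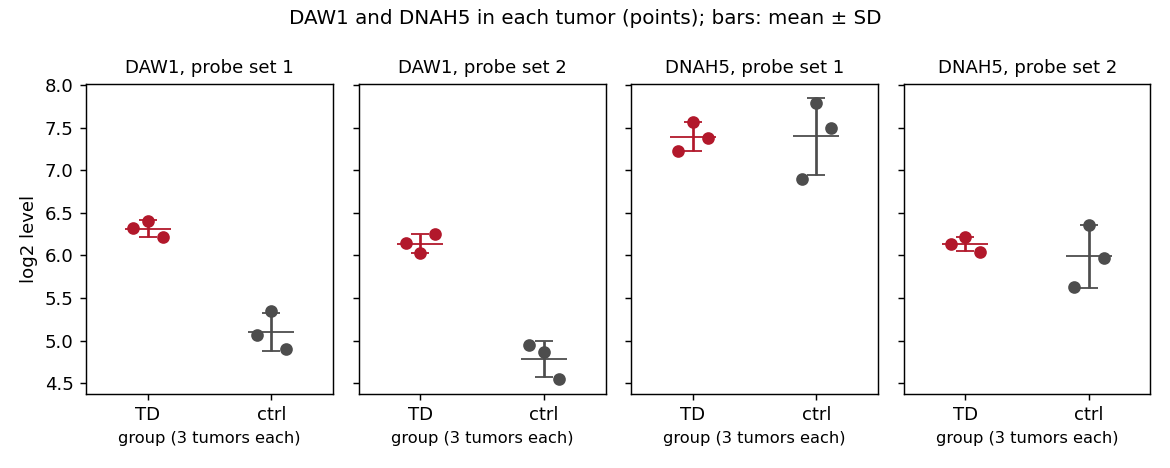
Log2 level of the 2 probe sets of DAW1 and the 2 of DNAH5 (vertical axis) in the 3 fusion tumors (TD, red) and 3 vector tumors (ctrl, grey); points are tumors, and horizontal bars with whiskers are means with SDs. DAW1 was at 6.21 to 6.40 in fusion tumors and 4.90 to 5.34 in vector tumors on its brighter probe set, while the DNAH5 groups overlap on both.

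Over all tested genes, limma called 0.073% at an adjusted p of 0.05 (10 of 13694), and among the members it called 1 of 73. That member, DAW1, was added by name in the rule and was known from earlier results of these data to pass. The count is therefore no result about the set. Without DAW1, limma called 0 of 72 members. Higher calls made up 0.0584% of all tested genes and lower calls 0.0146%, and 0 members were called lower. At an unadjusted limma p below 0.05 there were 6 members (8.22%, or 6.94% without DAW1), against 5.89% of all tested genes. These were DAW1, CFAP119, CFAP299, DNAI2 and DNAH10, which were higher, and CFAP206, which was lower. Groups did not overlap in 11 members (15.1%, or 13.9% without DAW1), of which 9 were higher and 2 lower. Among all tested genes the share was 11.7% (5.94% higher, 5.74% lower). Apart from DAW1, the lowest adjusted p of a member was 0.447. The median log2 fold change of the 73 members was -0.0019 with 35 above 0, beside a median of 0.0020 over all tested genes. The call of DAW1 held without vector tumor 1 (log2 fold change 1.19, adjusted p = 0.0225, with 0.27% of all genes called) and without vector tumor 2 (1.33, adjusted p = 0.0262). The call was lost when any of 4 tumors was dropped. These were fusion tumor 1 (log2 fold change 1.20, adjusted p = 0.158), the second fusion tumor (1.16, 0.106), the third (1.26, 0.150) and vector tumor 3 (1.11, 0.104). With 5 tumors the member count was thus 0 or 1. In tumor RNA, a change in the number of cells that express a gene and a change in its RNA per cell cannot be told apart.

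**Figure D2:**
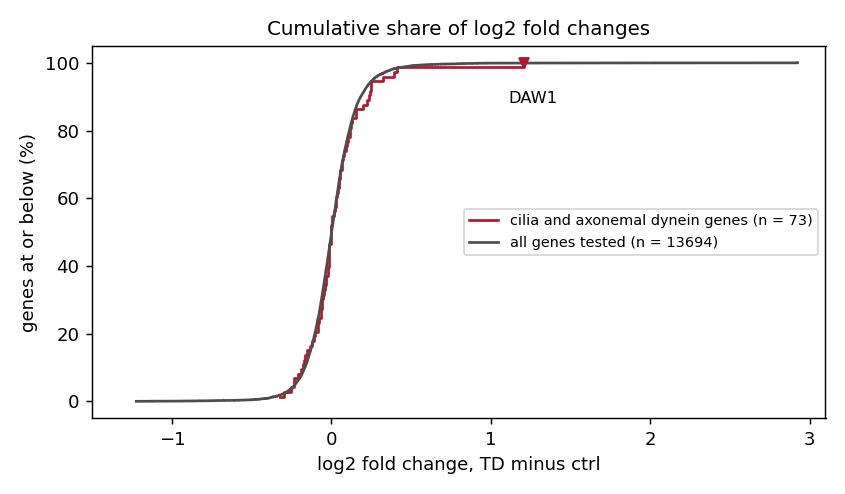
Cumulative share of genes in percent (vertical axis) by log2 fold change, fusion minus vector (horizontal axis), for the 73 tested cilia and axonemal dynein genes (red) and all 13694 tested genes (grey). The curves run close together around 0, and DAW1 at 1.21 is the member farthest to the right.

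Confidence intervals showed how precisely the array signal of each member was measured on the probe set used. They do not bound the change in RNA, since a dim signal can understate a fold. The 95% confidence interval lay inside a log2 change of 1 in either direction for 71 of 73 tested members, and inside 0.5 for 57. The exceptions at 1 were DAW1 and CFAP44, a flagellar protein needed for sperm movement. The median width of the interval to each side was 0.27, and the widest, 0.79, was that of CFAP70.

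**Figure D3:**
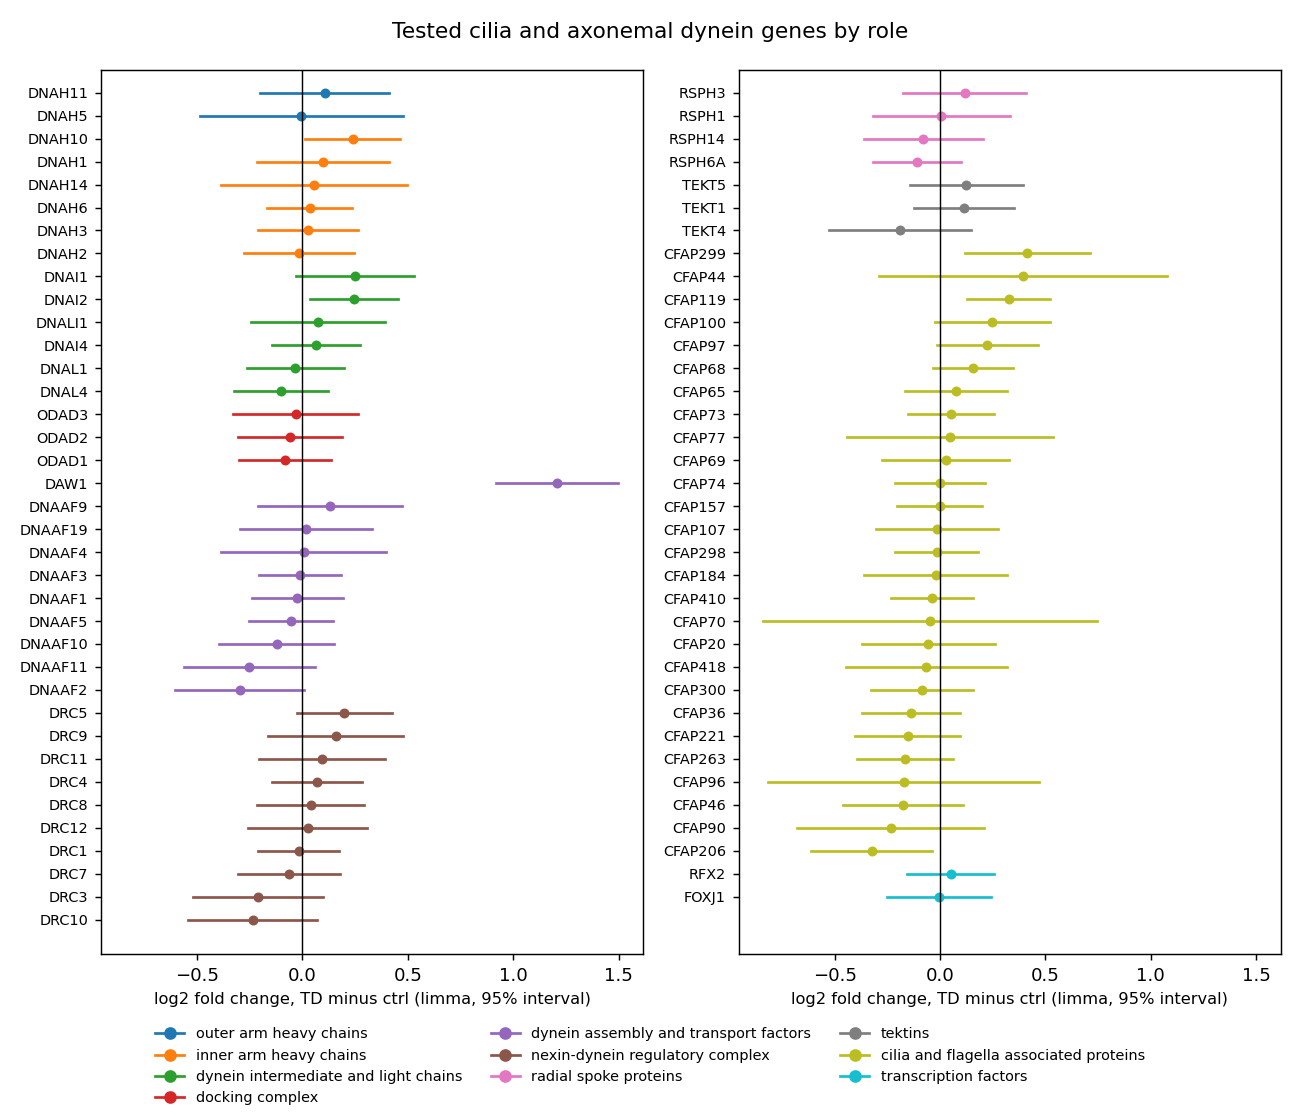
Log2 fold change, fusion minus vector, with limma's 95% confidence interval (horizontal axis) for each of the 73 tested members (rows), coloured by role. The interval of DAW1 runs from 0.92 to 1.499, and 67 of the 73 intervals include 0.

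Among the outer arm heavy chains, the motor subunits of the outer arm, 2 of 4 were tested and 0 passed. DNAH5, the gene joined to TRA2B in the fusion, had log2 levels of 7.23, 7.57 and 7.37 in fusion tumors and 6.90, 7.79 and 7.50 in vector tumors. The groups overlapped, and vector tumor 1 was the lowest of all 6. The means were 7.39 ± 0.17 in fusion tumors and 7.40 ± 0.45 in vector tumors (SD, n = 3 each), with a log2 fold change of -0.0043 and a 95% confidence interval of -0.48 to 0.48 (exact permutation p = 1). Its other probe set read 6.13, 6.21 and 6.04 in fusion tumors and 5.63, 6.36 and 5.97 in vector tumors. Without vector tumor 1 the log2 fold change of DNAH5 was -0.25, and it stayed short of the threshold. Since it is not known which part of DNAH5 the construct holds, these probe sets do not check for the fusion. Its partner TRA2B, a splicing regulator, had 10 probe sets with differences of -0.099 to 0.16. DNAH11, also a heavy chain of the outer arm, was at 6.54, 6.47 and 6.18 in fusion tumors and 6.09, 6.31 and 6.47 in vector tumors. DNAH8 and DNAH9 were below the tested range.

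Inner arm heavy chains, which build the arms that shape the bend, had 6 of 8 members tested, with log2 fold changes of -0.017 to 0.24, 5 above 0 and 0 past the threshold. DNAH10, a heavy chain of the inner arm, was at 6.38, 6.47 and 6.45 in fusion tumors, against 6.04, 6.28 and 6.27 in vector tumors. All fusion values lay above all vector values, but the log2 fold change of 0.24 (SE 0.098) had an adjusted p = 0.820 by limma. DNAH1, DNAH2, DNAH3, DNAH6 and DNAH14 overlapped between groups. DNAH7 and DNAH12 were not tested, and their differences were -0.012 and 0.12.

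The intermediate chains of the outer arm, which sit at its base, were both higher on their brightest probe set, without passing. DNAI1 was at 6.38, 6.002 and 6.05 in fusion tumors, against 5.89, 5.81 and 5.99 in vector tumors (log2 fold change 0.25, SE 0.12, limma adjusted p = 0.910). DNAI2 was at 5.07, 5.21 and 5.19 in fusion tumors, against 4.86, 4.89 and 4.99 in vector tumors (0.24, SE 0.091, limma adjusted p = 0.732). Neither gene overlapped between groups on these probe sets, although the gap for DNAI1 was narrow. Their other probe sets all overlapped. Those of DNAI1 differed by 0.22 and, below the tested range, by -0.081, and the mean of its 3 probe sets gave 0.13. That of DNAI2, also below the tested range, differed by -0.16, and with the mean of its probe sets DNAI2 was not tested. The light chains DNAL1, DNAL4 and DNALI1 had log2 fold changes of -0.10 to 0.08, with overlapping groups. The outer arm docking proteins ODAD1, ODAD2 and ODAD3, which fix the arm to the doublet, had values of -0.082 to -0.033, and all overlapped.

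Besides DAW1, 9 assembly factors of dynein arms were tested and 0 passed. DNAAF2, a co-chaperone that helps to fold dynein heavy chains, was at 5.92, 6.27 and 5.97 in fusion tumors, against 6.44, 6.13 and 6.48 in vector tumors. Fusion tumor 2 was above vector tumor 2, so the groups overlapped (log2 fold change -0.30, SE 0.13, limma adjusted p = 0.861). DNAAF11 was at -0.25 (SE 0.14), also with overlap. DNAAF5 was lower in every fusion tumor than in every vector tumor by a narrow margin, with a log2 fold change of -0.052 (limma adjusted p = 0.983). The other tested factors, DNAAF1, DNAAF3, DNAAF4, DNAAF9, DNAAF10 and DNAAF19, lay between -0.12 and 0.13. The median of the group was -0.018 with DAW1 counted, so DAW1 stood alone in it by size.

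The nexin-dynein regulatory complex, which links neighbouring doublets and regulates the arms, had 10 of 11 members tested, 6 above 0 and 0 past the threshold. DRC5 was the member of this complex with no overlap, at 6.88, 6.87 and 6.89 in fusion tumors, against 6.54, 6.70 and 6.81 in vector tumors (log2 fold change 0.20, limma adjusted p = 0.915). DRC10 and DRC3 leaned lower, at -0.24 and -0.21, and both overlapped. Radial spoke genes had 4 of 7 members tested, at -0.11 to 0.12. Of 5 tektins, TEKT1, TEKT4 and TEKT5 were tested, at 0.11, -0.19 and 0.12. None of these groups had a call.

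Cilia and flagella associated proteins, a set of varied axonemal components, formed the largest group, with 27 of 47 tested, 10 above 0, 17 below and 0 past the threshold. CFAP119 was at 6.23, 6.24 and 6.18 in fusion tumors, against 5.91, 5.95 and 5.82 in vector tumors. CFAP299 was at 7.29, 7.18 and 7.40 in fusion tumors, against 6.61, 7.01 and 7.002 in vector tumors. In both genes every fusion tumor was above every vector tumor, with log2 fold changes of 0.33 (SE 0.087, limma adjusted p = 0.447) and 0.41 (SE 0.13, limma adjusted p = 0.609). A second probe set of CFAP119 overlapped between groups and differed by 0.062, and the mean of its probe sets gave 0.19. CFAP299 had no other probe set. CFAP206, known in Tetrahymena to anchor a radial spoke, was at 5.62, 5.62 and 5.87 in fusion tumors, against 5.81, 6.10 and 6.16 in vector tumors. Fusion tumor 3 was above vector tumor 1 there, and the log2 fold change was -0.32 (SE 0.13, limma adjusted p = 0.767). A second probe set of CFAP206, below the tested range, overlapped between groups and differed by 0.17, in the other direction. CFAP97, CFAP100 and CFAP68 leaned higher at 0.22, 0.25 and 0.16, and CFAP263, CFAP221, CFAP46 and CFAP36 leaned lower at -0.17, -0.15, -0.18 and -0.14, all short of the threshold. With the mean of probe sets CFAP97 was at 0.14 and CFAP263 at -0.086.

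**Figure D4:**
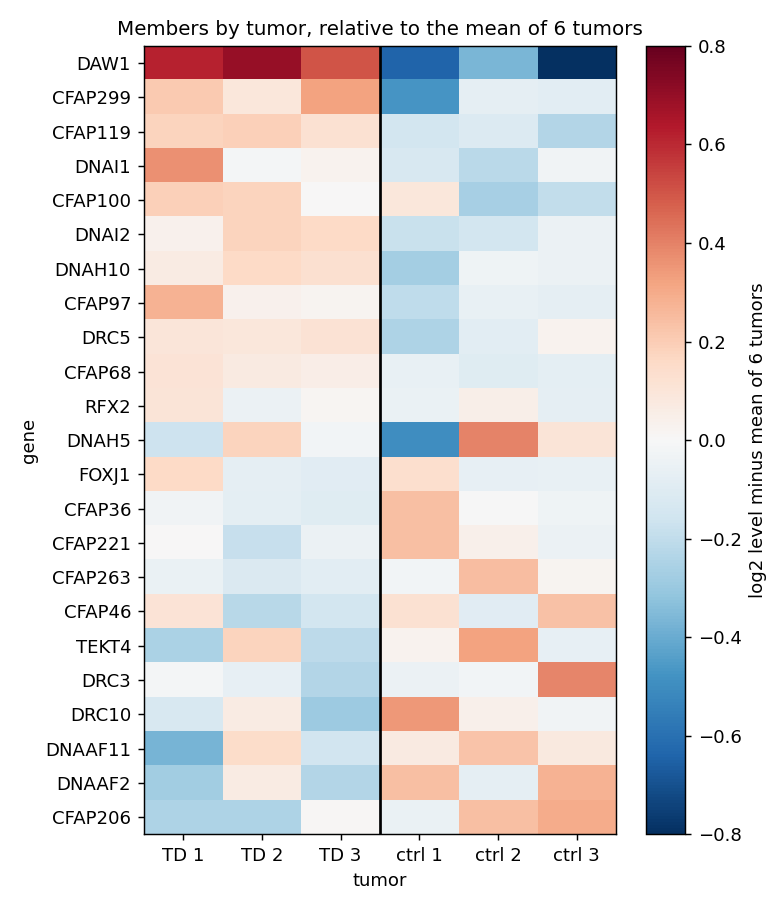
Log2 level minus the mean of the 6 tumors (colour scale, saturating at 0.8 in either direction) for the named members (rows, ordered by log2 fold change) in fusion tumors 1 to 3 and vector tumors 1 to 3 (columns). DAW1 separates the groups in every tumor, while vector tumor 1 is the lowest of the 6 for DNAH5 and CFAP299.

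Vector tumor 1 set the spread of some members. CFAP70 and CFAP44, chosen here after their values were seen, show it best. CFAP70, an outer arm associated protein in mouse, was at 7.32, 7.27 and 7.11 in fusion tumors and 6.31, 7.84 and 7.68 in vector tumors. With 6 tumors its log2 fold change was -0.046 (limma adjusted p = 0.995), and without vector tumor 1 it was -0.53 (SE 0.10, limma adjusted p = 0.123). CFAP44 was at 6.03, 6.10 and 5.77 in fusion tumors and 4.78, 5.87 and 6.07 in vector tumors. Its log2 fold change of 0.39 (SE 0.30) became -0.0041 without vector tumor 1. Of the members named by the rule, 5 moved by over 1.5 times without it: DNAH5, as given above, DRC10 (to -0.12), DRC5 (to 0.13), CFAP221 (to -0.071) and CFAP36 (to -0.051). FOXJ1 changed sign, to 0.060, and the other 17 moved by less than 1.5 times in the same direction. Over the 73 members, vector tumor 1 held the lowest value in 19 and the highest in 13, or 26% and 17.8%, against 28.8% and 27.2% of all tested genes. The range over 6 tumors had a median of 0.43 for members and 0.38 for all tested genes, and 4 members ranged over more than 1: CFAP70, DAW1, CFAP44 and CFAP96.

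Of the transcription factors of the program, FOXJ1 and RFX2 were tested and neither passed. FOXJ1, which switches on motile cilia genes, was at 6.77, 6.54 and 6.52 in fusion tumors and 6.75, 6.55 and 6.55 in vector tumors. The groups overlapped (log2 fold change -0.0048, 95% interval -0.25 to 0.24). RFX2, which binds the X-box, was at 6.28, 6.13 and 6.19 in fusion tumors and 6.12, 6.23 and 6.11 in vector tumors (interval -0.16 to 0.26). RFX3 was at 3.91 to 4.30 in fusion tumors and 4.03 to 4.44 in vector tumors, below the tested range.

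Members below the tested range are given as values only. Their differences ran from -0.41 for CFAP53, at 4.62, 4.42 and 4.83 in fusion tumors against 4.86, 5.11 and 5.14 in vector tumors, to 0.34 for CFAP126. Of these 37, fusion values were all above vector values in 3 and all below in 4, against 4.15% and 4.8% of the 4438 genes below the tested range. Among tested members, 28 had more than 1 probe set at or above the filter level, and the probe sets had the same sign in 14 and mixed signs in 14. The spread between probe sets of such a gene had a median of 0.11 and was at most 0.31, in DNAAF10.

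Genes next to DAW1 on the chromosome did not pass the threshold either. CCL20, a chemokine gene and the nearest tested gene on one side, was at 8.20, 10.12 and 8.90 in fusion tumors and 9.28, 7.99 and 5.99 in vector tumors. Its log2 fold change was 1.32, but the groups overlapped widely (SE 0.77, limma adjusted p = 0.956). SPHKAP, the nearest on the other side, was at -0.19, and AGFG1, SLC19A3, PID1 and TRIP12 lay between -0.13 and 0.13. Next to DNAH5, the guanine nucleotide exchange factor gene TRIO was at -0.19 and ROPN1L at -0.047, both with overlap. CMBL, MARCHF6, OTULINL and OTULIN lay between -0.13 and 0.14.

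**Figure D5:**
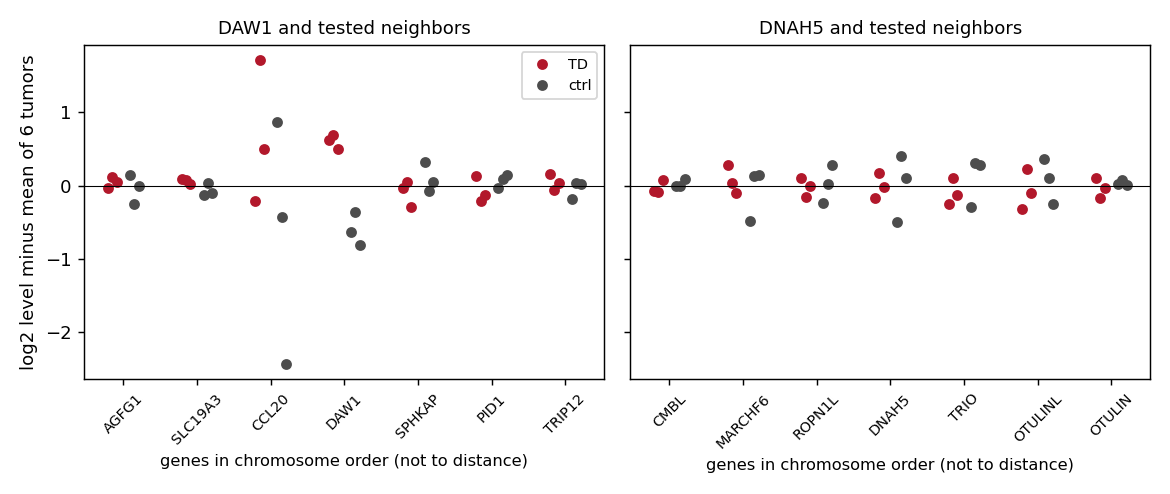
Log2 level minus the mean of 6 tumors (vertical axis) in fusion tumors (TD, red) and vector tumors (ctrl, grey) for DAW1 (left) and DNAH5 (right) with the 3 tested genes on each side, in chromosome order. DAW1 is the gene in its panel whose groups are separated past the threshold, and CCL20 varies most.

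Other genes of the cilium gave 0 calls. Of 30 intraflagellar transport genes, which carry cargo along the axoneme, 29 were tested, with a median log2 fold change of 0.018 and 15 above 0. IFT57, a subunit of the anterograde complex, was at 11.17, 10.85 and 11.07 in fusion tumors, against 10.38, 10.23 and 9.79 in vector tumors. Its groups did not overlap, with a log2 fold change of 0.90 (SE 0.16) and an adjusted p = 0.194 by limma. The kinesin-associated protein KIFAP3 was at 0.26 and IFT20 at -0.23, neither past the threshold. For the BBSome and the transition zone, the gate at the ciliary base, 26 genes were tested with a median of 0.011, and TCTN3 (-0.21), BBS5 (0.30) and TCTN1 (-0.19) had the smallest p. Of central pair and other axoneme proteins, 22 of 29 were tested (5 of the 29 are members under newer names), with a median of -0.044. TTC12, an assembly factor of axonemal dyneins, was at 6.20, 6.15 and 6.20 in fusion tumors, against 5.75, 5.82 and 5.89 in vector tumors (log2 fold change 0.36, limma adjusted p = 0.376). SPEF2, a central pair protein, was at 0.51 with no overlap (limma adjusted p = 0.678), and CCDC40 was at -0.18. Of regulators of multiciliogenesis and centriole amplification, 18 of 23 were tested, with a median of 0.037, and E2F5 (-0.17), CEP164 (0.27) and CEP152 (0.34) had the smallest p. Unadjusted p values below 0.05 were seen for 4, 0, 2 and 0 genes of these lists, in the order given.

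Markers of other cell types that a xenograft can hold were set beside the rise of DAW1. The mean over 10 fibroblast markers was 6.45 to 6.56 in fusion tumors and 6.22 to 6.40 in vector tumors, and that over 8 adipocyte markers was 5.84 to 5.90 in fusion tumors and 5.97 to 6.13 in vector tumors. Neither mean overlapped between groups. Limma called 0 of 8 tested fibroblast and 0 of 6 tested adipocyte markers (5 and 3 at an unadjusted p below 0.05). Directions were mixed inside both lists. Of the tested fibroblast markers 6 were above 0 and 2 below, from -0.50 to 0.91, and the 5 were 4 higher and 1 lower. Of the tested adipocyte markers 2 were above 0 and 4 below, and the 3 were all lower. Decorin (DCN) and lumican (LUM) were below the tested range in the fibroblast list, and FABP4 and LEP in the adipocyte list. The mean over 9 leukocyte markers was 5.47 to 5.53 in fusion tumors and 5.41 to 5.47 in vector tumors. Endothelial markers (7 genes) had means of 5.14 to 5.17 in fusion tumors and 5.06 to 5.24 in vector tumors. Skeletal muscle markers (9 genes) had means of 5.43 to 6.64 in fusion tumors and 5.66 to 6.67 in vector tumors. Markers of lung adenocarcinoma and alveolar cells (7 genes) had means of 5.52 to 5.56 in fusion tumors and 5.51 to 5.70 in vector tumors. These last 4 ranges overlapped between the groups, that of leukocytes only just (lowest fusion mean 5.46635, highest vector mean 5.46652). Of 6 tested leukocyte markers 5 were above 0 and 1 below, and 2 had all fusion values above all vector values. Limma called 0 genes of these 4 lists (1 leukocyte marker, CD68, at an unadjusted p below 0.05). Host cells in these tumors are mouse cells, while the probe sets name human genes. Whether these signals come from human cells or from mouse RNA on human probes was not tested. The means are therefore not measures of host cell content. The part of these cell types in the DAW1 result was not tested.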

How the data were processed

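Per the labels, RNA was extracted with Trizol, biotin-labelled and hybridised by Affymetrix standard procedures. The authors deposited log2 probe set values, 1 column per array. The scale was read from the values, while background correction, normalization, summarisation and genome build were not stated in the labels.

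Of 49293 probe sets, 44988 named 1 gene in the platform annotation. The probe set with the highest mean stood for a gene (18132 genes), and those at or above the 30th percentile of probe set means (13694) were tested. The test was limma (version 3.58.1, with R 4.3.3), two-sided, fusion minus vector. P values were adjusted by Benjamini-Hochberg across the tested genes and called at 0.05. The model was tested on simulated data. It recovered 51.2% of 1.5-fold and 84.5% of 2-fold changes. The false share was 5.03% at every fold tried, which matches a cut of 0.05 on the unadjusted p. For the calls given here the cut on the unadjusted p was 2.02e-05, which is stricter. The share recovered at that cut would be lower and was not measured. Many changes of 1.5-fold, and also changes of 2-fold, can thus be missed. Members and lists were chosen with earlier results of these data known, so no list was tested. Named were members past the threshold, the 10 per direction with the smallest p, DNAH5, FOXJ1, RFX2, RFX3, TRA2B, 3 neighbours on each side of DAW1 and DNAH5, and 3 genes per related list. Symbols of all 110 members matched RefSeq, which gave gene order and upstream sequence (GRCh38.p14). Alternatives covered filter, probe set choice, normalization, variance model, array weights, replicate block and each tumor left out. Figures used Python 3.11.15, pandas 2.3.3 and matplotlib 3.10.9.

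The labels call the tumors biological replicates without naming mice, so p values measure the spread between these tumors. The tumors of a group share a cell label, so whether they stem from separate transfections is not known. The fusion and other differences between the transfected cells of the groups cannot be told apart, for DAW1 as for every gene.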

Additional observations from a re-analysis of the deposited data

How the results depend on the processing

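The log2 fold change of DAW1 ran from 1.085 to 1.355 over all settings, with an adjusted p of 0.0044 to 0.158 by limma, and from 1.11 to 1.33 with a tumor left out. The members called were 0 with the 50th percentile filter, under which DAW1 was not tested (1 of 30 members at an unadjusted p below 0.05), and 0 to 1 with a tumor left out. All genes called were 1 with that filter, 16 with the mean of probe sets, 6 with the most variable probe set, 140 with array weights and 0 to 37 with a tumor left out. The median over members was 0.0035 with the mean of probe sets, 0.0051 with the most variable probe set, -0.031 with median centring (which set the median of all genes to -0.027) and -0.0041 to 0.018 with a tumor left out. DNAH5 was at 0.069 with the mean of probe sets and at -0.25 to 0.19 with a tumor left out, changing sign without fusion tumor 1 (0.077), fusion tumor 3 (0.0040), vector tumor 2 (0.19) or vector tumor 3 (0.047). FOXJ1 turned to 0.046 with the mean of probe sets and lay at -0.086 to 0.060 with a tumor left out (0.031 without fusion tumor 2, 0.040 without fusion tumor 3). CFAP263 (0.035) and RFX2 (-0.082) changed sign with the most variable probe set. The cause of these shifts was not tested. With the replicate number as a block, DAW1 kept its call (adjusted p = 0.0306) and 8 genes passed. Same-numbered tumors deviated together only weakly (correlations 0.14, 0.18 and 0.05), so the numbers were not taken as pairs, although each of the 6 tumors correlated best with its own number in the other group. With no detection calls, how far dim members lie above background is not known.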

Other observations

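Cytoplasmic dynein, the motor that moves cargo along microtubules of the cell body, shares some of its light chains with axonemal dyneins. Of 24 genes listed for cytoplasmic dynein 1 and its cofactor dynactin and present on the array, 22 were tested, and limma called 0 (1 at an unadjusted p below 0.05). Their median log2 fold change was -0.051, with 8 above 0 and 14 below. The list holds DYNLT2B, although it is a light chain of the motor of intraflagellar transport. It was at 7.07, 7.38 and 7.22 in fusion tumors, against 7.71, 7.41 and 7.42 in vector tumors. All fusion tumors were below all vector tumors, by 0.29 on average (SE 0.12, limma adjusted p = 0.829). NDE1, a dynein cofactor of mitosis, was at 0.23 and the dynactin subunit ACTR10 at -0.18, both with overlapping groups.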
